A study of Mus musculus with 4 samples.

Results

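Layer 4/5 intratelencephalic (L4/5 IT) neurons of the mouse cortex were examined as single nuclei in 2 Sel1L flox/flox and 2 Sel1L Syn-Cre mice, all 5 weeks old, with 1 library per mouse from cortex and hippocampus together. By the labels and the study's methods all 4 mice carry the floxed Sel1L alleles on a C57BL/6J background, and the Syn-Cre mice also carry a Cre recombinase driven by the Synapsin I promoter, which is active in neurons. The values are counts of unique molecular identifiers (UMIs), each standing for 1 captured RNA molecule, from 3′ droplet libraries. Kept nuclei had over 600 genes detected and under 5% of UMIs from mitochondrial genes. A kept nucleus was taken as L4/5 IT when it had at least 2 UMIs of Slc17a7 (the vesicular glutamate transporter of cortical excitatory neurons), at most 1 UMI of Gad1 and Gad2 together, at least 2 UMIs of Rorb, and a UMI of at least 3 of the 7 genes Rspo1, Adam33, Gm29674, BC006965, 1700047F07Rik, Scn7a and Whrn. This gave 764 nuclei of the 36094 kept and the 36619 deposited. The flox/flox libraries held 283 and 198 of them (replicates 1 and 2), with 5287562 and 2968286 UMIs and medians of 16096 and 12230 UMIs per nucleus. The Syn-Cre libraries held 129 and 154, with 2062285 and 2740853 UMIs and medians of 13474 and 14823. Wherever 4 values follow each other below, they are in this order: flox/flox replicates 1 and 2, then Syn-Cre replicates 1 and 2.

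IT neurons send their axons to other parts of the cortex and to the striatum, and the Rorb-positive IT neurons of the middle layers are the main cortical recipients of sensory input from the thalamus. SEL1L is the adaptor of the ubiquitin ligase HRD1 (Syvn1) in ER-associated degradation (ERAD), which moves misfolded proteins out of the endoplasmic reticulum (ER) to the proteasome. When misfolded proteins build up in the ER, the sensors IRE1, ATF6 and PERK start the unfolded protein response: ATF6 and the IRE1 product XBP1 raise chaperones and ERAD components, while PERK, through ATF4, raises amino acid transporters, tRNA synthetases and the transcription factor CHOP (Ddit3).

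The libraries were first checked against their labels. The transgene was counted as a feature named CRE, with 35, 0, 11 and 15 UMIs in the L4/5 IT nuclei, or 6.62, 0, 5.33 and 5.47 on the counts-per-million scale (CPM). The library labelled flox/flox replicate 1 thus held as much CRE as the Syn-Cre libraries, against its label, while in replicate 2 a count of 0 allows up to 1.01 CPM. In the other excitatory nuclei of the 3 libraries with CRE its level was 2.05, 1.78 and 1.91 CPM, below that in the L4/5 IT nuclei. The main counts are therefore also given without the library labelled flox/flox replicate 1. Xist and Ddx3y showed a male mouse for replicate 1 and a female mouse for replicate 2 under both labels (Xist 0, 5393, 2 and 4520 UMIs), so sex was balanced between the groups. Of 36495 different barcodes 123 occurred in more than 1 library, and 6 of the L4/5 IT nuclei had a barcode that another library also held, though none of those barcodes was an L4/5 IT nucleus in both libraries. Markers of oligodendrocytes, which surround axons with myelin, were present at a summed 280, 100, 151 and 65.3 CPM over 8 of 8 genes, with Mbp the most abundant in every library.

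Markers outside the rule were compared with the other excitatory nuclei, as a description. Of the L4/5 IT markers, Cux1, a transcription factor of callosal IT neurons, stood at 236, 299, 194 and 193 CPM, against 115 to 136 CPM. Cux2, of the upper layers, was at 243, 249, 213 and 208 CPM, against 108 to 120 CPM. The layer 2/3 markers were mixed: Rasgrf2 was likewise above the other excitatory nuclei in every library, while Otof (2.91 to 4.74 against 8.36 to 16.2 CPM), Calb1, Stard8, Wfs1 and Matn2 were below them. All 7 markers of layer 6 corticothalamic neurons were below the other excitatory nuclei in every library, among them Foxp2 at 22.5, 20.9, 27.6 and 23.7 against 98.9 to 122 CPM. They were not all low, since Hs3st4 was at 523, 394, 386 and 408 CPM, against 737 to 867 CPM. Scnn1a, an epithelial sodium channel subunit used as a layer 4 marker, was low everywhere but stood at 3.97, 4.04, 4.85 and 4.74 CPM, against 0.911 to 1.54 CPM in the other excitatory nuclei.

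Endou and Hsd11b1, further markers of this group, were likewise above the other excitatory nuclei, Hsd11b1 at 12.3, 20.6, 12.1 and 11.7 CPM. Batf3 went against the name, with 2, 0, 0 and 0 UMIs, while other excitatory nuclei had 0.748 to 1.73 CPM. Rorb itself, a nuclear receptor that shapes layer 4 identity and part of the rule, was at 861, 1138, 813 and 800 CPM, and at 83.8 to 125 CPM in the other excitatory nuclei. At the edge of the rule, the 458 nuclei with exactly 3 of the 7 genes had a Rorb level of 919 CPM and a median of 13077 UMIs, and the 640 nuclei with 2 of them, just outside, had 820 CPM and 12396 UMIs.

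Away from the rule genes, the features that stood furthest above the other 14404 excitatory nuclei in every library were Gm20752, Col26a1, Rcan2, Gm13601, Kcnh5, Thsd7a, Wls, A830036E02Rik, Boc and Krt12. Ranked by the lowest ratio of any library, the noncoding RNA Gm20752 led, with log2 ratios of 3.34, 3.53, 3.10 and 2.76. The collagen gene Col26a1 followed, with log2 ratios between 2.69 and 3.22, the latter in Syn-Cre replicate 1, where it was above Gm20752. Wls carries Wnt proteins to the cell surface, Rcan2 inhibits calcineurin and Kcnh5 is a voltage-gated potassium channel. Furthest below were Grik3, Dscaml1, Bcl11b, Nfia, Cdh9, Sema5a, Htr4, Cntnap5c, Sema3e and Thsd7b. Bcl11b (CTIP2), the transcription factor of deep-layer neurons that project out of the cortex, was at 27.6, 4.72, 20.4 and 18.2 CPM, against 110 to 131 CPM in the other excitatory nuclei. Since the same nuclei gave the rule and these ratios, they are a description with no test.

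Within the L4/5 IT nuclei, thinned to 4000 UMIs each (1 nucleus of flox/flox replicate 2 was shallower), the genes with the largest variance over mean were Malat1, Dpp10, Kcnip4, Lsamp, Lrrtm4, Lingo2, Ptprd, Sgcz, Galntl6 and Pcdh15. The nuclear RNA Malat1 led, with a ratio of 26.7 to 35.3. Dpp10, a partner of A-type potassium channels, had a ratio of 13.5 to 15.6 and Kcnip4, another such partner, of 9.03 to 9.87, against a median of 1.05 over 4868 genes with at least 0.1 UMI per nucleus.

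L4/5 IT nuclei made up 2.29% (95% Wilson interval 2.04 to 2.57) and 2.35% (2.05 to 2.69) of the kept nuclei in the flox/flox libraries, and 1.60% (1.35 to 1.90) and 2.13% (1.82 to 2.49) in the Syn-Cre libraries. The means were 2.32% ± 0.0409 (SD, n = 2) and 1.86% ± 0.375 (SD, n = 2). The groups did not overlap, but the two-sided exact permutation test gave p = 0.333, the smallest value that 2 against 2 allows. Of all excitatory nuclei the shares were 5.42%, 5.97%, 3.96% and 4.57%. All excitatory nuclei with at least 2 Rorb UMIs, whatever the other genes, made up 7.62%, 8.53%, 6.93% and 9.27% of kept nuclei, and the groups overlapped. Of those Rorb nuclei, 30.0%, 27.5%, 23.1% and 22.99% met the rest of the rule. The metalloprotease gene Adam33 is part of the rule and was itself lower in the Syn-Cre libraries, at 77.2, 94.2, 35.3 and 46.0 CPM after scaling by trimmed mean of M values (TMM). Without Adam33 in the rule the difference in share was -0.229 points in place of -0.454 points. When every nucleus was thinned to 4000 UMIs, 0.222%, 0.230%, 0.118% and 0.241% met the rule and the groups overlapped.

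The genotypes were then compared gene by gene in the L4/5 IT nuclei, on the UMIs of each library summed. Genes higher in the Syn-Cre nuclei included 9 of 28 ER chaperones and folding enzymes, 6 of 19 genes linked to ATF4 and 9 of 24 activity-regulated genes, and the Syn-Cre nuclei had lower RNA of the serotonin receptor gene Htr2a and of the noncoding RNA Gm20752. Of 12548 genes tested with edgeR's quasi-likelihood test, 125 passed an adjusted p of 0.05 (0.996%), 81 higher in the Syn-Cre libraries (0.646%) and 44 lower (0.351%). At an unadjusted p below 0.05 there were 844 genes higher and 738 lower. The median log2 fold change of all genes tested was 0.0008. Without the library labelled flox/flox replicate 1 the count was 542, with 309 higher and 233 lower, and 123 of the 125 were among them. Without Syn-Cre replicate 2 it was 67, of which 47 were among the 125, and without doublet-scored nuclei it was 210. In all excitatory nuclei with Rorb the count was 39. Leaving out flox/flox replicate 2 also raised the number called, so the rise was not particular to the library labelled flox/flox replicate 1. Groups of libraries that did not overlap were common, with 21.9% of all genes higher and 21% lower in both Syn-Cre libraries, so a lack of overlap alone sets no gene apart.

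Sel1l (ENSMUSG00000020964, chromosome 12, 91806043 to 91849157, minus strand, GRCm38) did not fall in the Syn-Cre libraries. Its level was 95.4, 87.0, 140 and 138 TMM-scaled CPM, from 487, 254, 286 and 391 UMIs. The log2 fold change was 0.61 (SE 0.13, adjusted p = 0.0527), and without the library labelled flox/flox replicate 1 it passed the test (0.68, adjusted p = 0.00627). A 3′ count reads the end of the transcript and does not show whether the floxed exon was removed, so Sel1l does not check the labels. All Syn-Cre values lay above all flox/flox values, by about 1.52-fold in the fit.

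Chaperones of the ER lumen held the most called genes of the ER lists. Of 28 tested chaperones and folding enzymes, 9 passed the test, all higher, and the median log2 fold change of the list was 0.71, with 26 of 28 above 0. Without the library labelled flox/flox replicate 1, 14 of them passed, and without flox/flox replicate 2, 12. Without Syn-Cre replicate 1 or 2 the count was 6 and 4, and DESeq2 called 6. Hspa5 (BiP, ENSMUSG00000026864, chromosome 2, 34771970 to 34777547), the main HSP70 chaperone of the ER, was at 17.4, 16.4, 70.6 and 59.8 TMM-scaled CPM. Both Syn-Cre libraries were far above both flox/flox libraries, with a log2 fold change of 1.93 (SE 0.18, adjusted p = 0.000577), or 3.82-fold. Its cochaperone gene Dnajc3 (P58IPK) was at 38.8, 43.2, 98.5 and 98.7 CPM, with a log2 fold change of 1.27 (SE 0.15, adjusted p = 0.0016). The disulfide isomerase gene Pdia6 was at 27.2, 18.5, 66.2 and 63.0 CPM, with a log2 fold change of 1.47 (SE 0.19, adjusted p = 0.00397).

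Sdf2l1, which works with BiP's cochaperones, was at 1.37, 1.37, 10.3 and 13.8 CPM, the largest change of the list, with a log2 fold change of 3.12 (SE 0.44, adjusted p = 0.00564). The other 5 that rose were the secreted stress factor Manf (0.86), the HSP90 chaperone Hsp90b1 (0.88), Hyou1 (1.28), Pdia3 (0.76) and Txndc11 (0.66). Pdia4 (1.19, adjusted p = 0.0527), Calr (0.63, adjusted p = 0.148) and Canx (0.43, adjusted p = 0.259) were not called.

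Among 26 tested ERAD genes 2 were called, both higher, and the median log2 fold change was 0.27. Without flox/flox replicate 1 or 2 the count was 3 and 4. Derl3 (ENSMUSG00000009092, chromosome 10, 75893413 to 75895941, plus strand), a derlin of the retrotranslocation channel that is scarce in resting cells, had 3, 1, 26 and 30 UMIs, or 0.588, 0.343, 12.7 and 10.6 TMM-scaled CPM. It was nearly absent from the flox/flox libraries, and the log2 fold change was 4.44 (SE 0.53, adjusted p = 0.00182). In Syn-Cre replicate 1, however, Derl3 was found in 4.65% of L4/5 IT nuclei thinned to 4000 UMIs and in 11.6% of oligodendrocyte nuclei (median 2855 UMIs), so its share there was not above that of a cell type that is not a neuron. In Syn-Cre replicate 2 the shares were 4.5% and 1.51% (median 2655 UMIs in the oligodendrocyte nuclei). Herpud1, an ER membrane protein that assembles the HRD1 complex, was at 19.8, 22.3, 66.6 and 57.0 CPM, with a log2 fold change of 1.56 (SE 0.18, adjusted p = 0.0016). Syvn1, which encodes HRD1, was at 10.6, 11.3, 11.8 and 16.3 CPM and was not called (0.39, adjusted p = 0.628), like Vcp, Edem1, Derl1 and Derl2. Of 31 proteasome genes tested edgeR and DESeq2 called none, with 1 at an unadjusted p below 0.05, and their median was 0.07.

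Among 14 tested sensors and transcription factors of the unfolded protein response 2 were called, both higher. Without flox/flox replicate 1 or 2 the count was 3 and 4, and without Syn-Cre replicate 2 it was 1. Ddit3 (CHOP) was at 3.92, 2.40, 23.5 and 26.2 CPM, with a log2 fold change of 2.89 (SE 0.31, adjusted p = 0.000948). A second feature with the same symbol overlaps it on the same strand and Mars on the other, so the split of reads between them is uncertain. Creb3l2, an ER-bound transcription factor cleaved like ATF6, was at 4.90, 1.37, 13.7 and 21.6 CPM, with a log2 fold change of 2.34 (SE 0.42, adjusted p = 0.0209), or 3.67 without flox/flox replicate 1. Xbp1 was at 17.8, 19.9, 36.8 and 32.6 CPM and just missed the threshold (0.88, adjusted p = 0.0593). The RNA of Atf4 itself, which is controlled mainly at translation, had 93, 73, 36 and 58 UMIs (log2 fold change -0.15, adjusted p = 0.867).

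**Figure D1:**
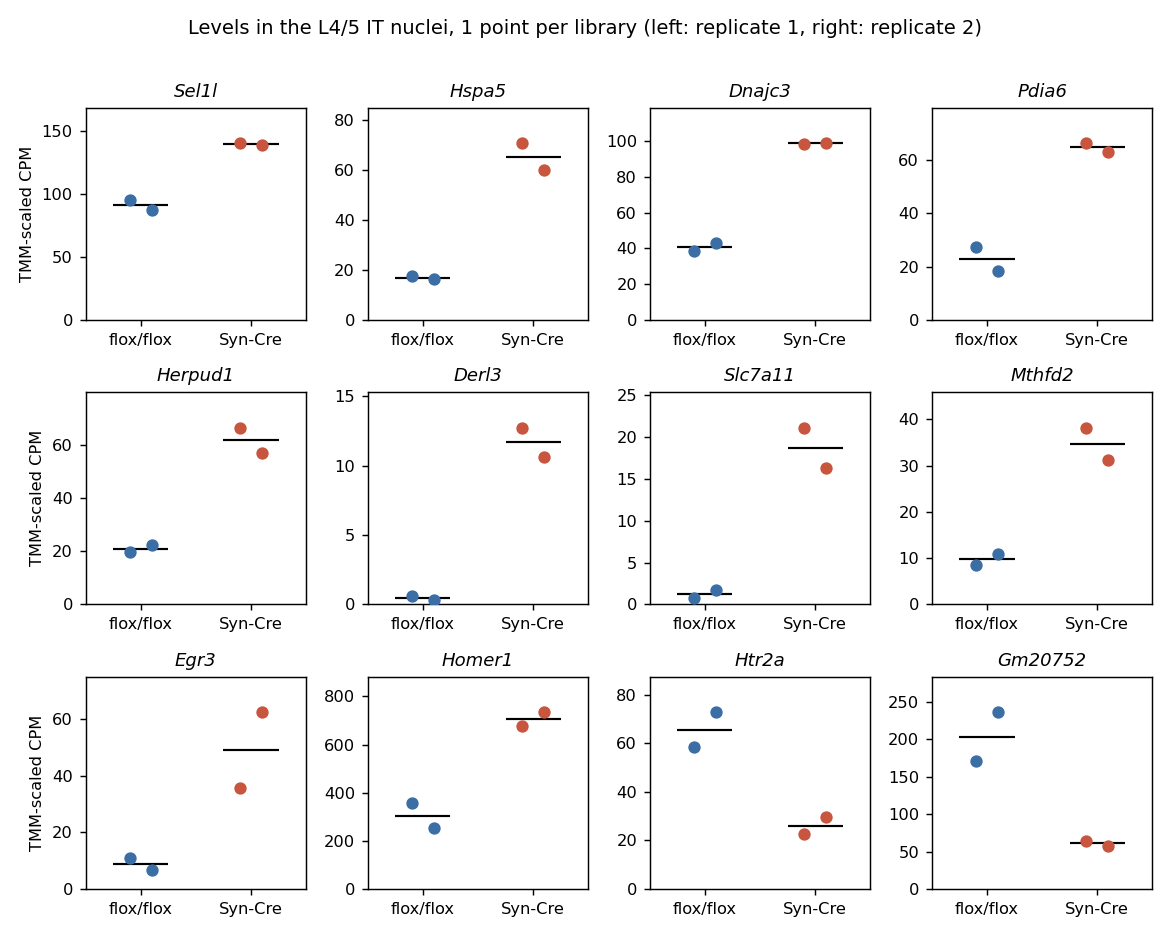
Levels of 12 genes in the L4/5 IT nuclei of each library, in TMM-scaled CPM on axes that start at 0. Points are libraries and lines group means. In every panel both Syn-Cre points lie on one side of both flox/flox points, above them except for Htr2a and Gm20752.

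The promoters of the called genes were searched for known binding motifs of the pathway. RefSeq promoter windows (GRCm38.p6), the 250 bases before the annotated start site, were found for 62 of the 81 higher and 32 of the 44 lower genes. The ER stress response element, a CCAAT box and the letters CCACG with 9 bases of any kind between them, on either strand, which is bound by ATF6 and XBP1 with NF-Y, was present in 6 of the 62 (9.68%), in 0 of the 32, and in 0.158% of the 9500 tested genes with a window. These were Hspa5, Dnajc3, Pdia6, Hsp90b1 and Derl3 of the lists above, and Hnrnpa3. Herpud1 carried the related element II, the letters ATTGG and CCACG with 1 base between them, which 0.0737% of tested genes hold. Below, 30 bases around each match are printed in the direction of the motif, with its fixed letters in capitals, to show how alike the sites are. In Derl3 the motif lies on the strand opposite to the gene, and the second copy in Hsp90b1, also on the opposite strand, is not printed.
Hspa5, chr2:34772020-34772049: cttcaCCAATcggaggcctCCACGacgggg
Dnajc3, chr14:118937822-118937851: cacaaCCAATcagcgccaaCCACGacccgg
Pdia6, chr12:17266486-17266515: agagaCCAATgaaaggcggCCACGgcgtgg
Hsp90b1, chr10:86705632-86705661: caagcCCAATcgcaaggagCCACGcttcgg
Derl3, chr10:75893237-75893266: ggctagCCAATggggaagtcCCACGgtaga
Herpud1, chr8:94386368-94386397: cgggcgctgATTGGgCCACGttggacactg
Counted from the RefSeq start site, which in Hspa5 lies inside the gene span given above, the motif began 65 bases upstream in Hspa5, 105 in Dnajc3, 98 in Pdia6, 212 in Hsp90b1, 156 in Derl3 and 52 in Herpud1. A match is a sequence description and no measurement of binding.

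The whole 250-base window of Derl3, the ERAD gene with the largest change, is given on the plus strand of chr10:75893148-75893397, with the element (here in reverse) in capitals.
Derl3 promoter: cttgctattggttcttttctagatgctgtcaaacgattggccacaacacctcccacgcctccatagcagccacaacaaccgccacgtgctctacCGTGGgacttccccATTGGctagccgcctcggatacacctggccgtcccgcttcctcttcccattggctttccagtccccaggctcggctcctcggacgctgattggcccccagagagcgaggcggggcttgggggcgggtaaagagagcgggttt

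Of 19 tested genes linked to ATF4, 6 were called, all higher, with a list median of 0.65. Without the library labelled flox/flox replicate 1 the count was 10 and without flox/flox replicate 2 it was 12, while without Syn-Cre replicate 2 and with DESeq2 it was 4. Fam129a (Niban, ENSMUSG00000026483, chromosome 1, 151571186 to 151721939), a stress protein that acts on translation, went from 1 and 0 UMIs to 44 and 42. Its pooled Syn-Cre to flox/flox ratio of UMIs per total was 148, with a 95% counting interval of 25.8 to 5906, and its adjusted p was 0.000482. Slc7a11, the cystine transporter that feeds glutathione synthesis, had 4, 5, 43 and 46 UMIs, or 0.783, 1.71, 21.1 and 16.3 CPM, with a log2 fold change of 3.98 (SE 0.43, adjusted p = 0.000948). Gm37854 overlaps it on the other strand. The cationic amino acid transporter genes Slc7a3 (7.05, 3.77, 26.5 and 20.9 CPM) and Slc7a1 (27.2, 22.9, 60.3 and 52.7 CPM) had log2 fold changes of 2.03 and 1.15, both at adjusted p = 0.00936. The value for Slc7a3 was 2.62 and that for Slc7a11 was 3.39 without flox/flox replicate 1. Slc1a4, a neutral amino acid transporter, and Slc7a5, the large neutral one, completed the 6 (1.43 and 1.19). Asparagine synthetase, Asns, was not called (0.87, adjusted p = 0.0722).

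The window of Slc7a11 holds 2 copies of the C/EBP-ATF response element, TGATGNAA, and that of Herpud1 holds 1, while 2.26% of tested genes have at least 1. They are printed in the direction of the motif.
Slc7a11, chr3:50443661-50443690: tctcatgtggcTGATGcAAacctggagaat
Slc7a11, chr3:50443642-50443671: gggctgcatgaTGATGcAAattctccaggt
Herpud1, chr8:94386306-94386335: ggggtgcgggcTGATGcAAcccgccgtggt
Over all 62 higher genes with a window the share was 3.23%, close to the background.

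In the mitochondrial folate pathway Mthfd2 (8.62, 11.0, 38.2 and 31.1 CPM) had a log2 fold change of 1.84 (SE 0.23, adjusted p = 0.0034). The phosphoserine phosphatase gene Psph (8.62, 14.4, 28.4 and 26.2 CPM) had 1.30 (adjusted p = 0.0395). They were the 2 called of 19 genes of serine and one-carbon metabolism, whose median was 0.10. At an unadjusted p below 0.05 there were 5 higher and 1 lower. Shmt2 (1.84, adjusted p = 0.0961), Psat1 (1.35, adjusted p = 0.206) and Aldh1l2 (1.37, adjusted p = 0.261) were higher on few UMIs but not called. The 1 lower was Mat2b (-0.60, adjusted p = 0.208). Without the library labelled flox/flox replicate 1, 4 were called higher and 1 lower, and Psph lost its call (adjusted p = 0.0566). Without either Syn-Cre library, and with DESeq2, 1 was called. Of 20 cytosolic aminoacyl-tRNA synthetases, which load tRNAs with amino acids, only Eprs was called (0.69, adjusted p = 0.0432), and the list median was 0.38. Without flox/flox replicate 1 or 2 the count was 3 and 5, without doublet-scored nuclei 3, and without either Syn-Cre library or with DESeq2 none was called, while 9 were higher at an unadjusted p below 0.05 with all libraries. Sars (0.59), Cars (0.73), Lars (0.58), Wars (0.80) and Nars (0.52) had adjusted p between 0.0677 and 0.127. Of 38 genes of ER translocation and ER-Golgi transport none was called, at a median of 0.34, and at an unadjusted p below 0.05 there were 10, all higher. DESeq2 called none of these 38 either, while edgeR called 1 higher without flox/flox replicate 1, 2 without flox/flox replicate 2, 3 without doublet-scored nuclei and 1 without nuclei with myelin UMIs.

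Activity-regulated genes formed the other large group. Of 24 tested, 9 were called, all higher, and the list median was 1.00. Without the library labelled flox/flox replicate 1, 15 were called higher and 2 lower, in the absence of Syn-Cre replicate 2 there were 4 higher and 1 lower, and DESeq2 called 7 higher. Leaving out flox/flox replicate 2 also raised the number called higher. The transcription factor gene Egr3 was at 11.0, 6.85, 35.8 and 62.6 CPM, with a log2 fold change of 2.43 (SE 0.29, adjusted p = 0.00185). The synaptic scaffold gene Homer1 was the most abundant, at 356, 253, 676 and 735 CPM, with a log2 fold change of 1.21 (SE 0.16, adjusted p = 0.00343). The nuclear receptor gene Nr4a3 was at 6.46, 2.40, 19.6 and 36.4 CPM (2.55, SE 0.38, adjusted p = 0.00903), or 3.56 on the log2 scale without flox/flox replicate 1. The neurotrophin gene Bdnf was at 24.3, 17.8, 44.6 and 66.9 CPM (1.39, SE 0.22, adjusted p = 0.0125). Pcsk1, Scg2 and Vgf, genes of neuropeptide processing and dense-core granules, rose by 1.12, 1.28 and 1.25 on the log2 scale, and Nr4a1 and Fosl2 by 0.92 and 2.38. Without Syn-Cre replicate 2 the value for Fosl2 was 1.32 and it was no longer called.

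Fos, Arc, Egr1, Junb and Npas4, also on the list, were not called. Fos was at 25.1, 20.6, 15.2 and 27.2 CPM and Arc at 62.5, 30.8, 44.6 and 66.5 CPM, with overlapping groups. Egr1 (92.1, 120, 53.4 and 78.9 CPM) had a log2 fold change of -0.66 (adjusted p = 0.138), Junb one of -0.65 (adjusted p = 0.164) and Npas4 one of -0.50 (adjusted p = 0.51). Of 11 glucocorticoid-responsive genes 2 were called higher, 1 without Syn-Cre replicate 1 and with DESeq2, and none without Syn-Cre replicate 2. Fkbp5, a cochaperone of the glucocorticoid receptor, was at 17.8, 11.3, 35.8 and 44.2 CPM (1.42, SE 0.23, adjusted p = 0.0136), and Zbtb16 at 165, 154, 256 and 228 CPM (0.60, adjusted p = 0.0454). Sgk1 was at 82.5, 66.4, 82.3 and 67.2 CPM (-0.01).

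The 10 genes with the largest rise were Fam129a, Gm38403, Derl3, Slc7a11, Sdf2l1, Cftr, Cyb5r1, Ddit3, Cox6a2 and B230323A14Rik. The noncoding RNA Gm38403 had 1, 0, 11 and 10 UMIs, a pooled ratio of 36.1 with a 95% counting interval of 5.81 to 1493. The chloride channel gene Cftr had 5, 2, 18 and 18 UMIs (3.04, adjusted p = 0.0232), and B230323A14Rik had 11, 1, 22 and 25 (2.69, adjusted p = 0.0305), or 4.64 without flox/flox replicate 1. Cyb5r1 and the muscle-type cytochrome oxidase subunit Cox6a2 had log2 fold changes of 2.99 and 2.88, from 3 and 6 UMIs in the flox/flox libraries for each. These were 2.15 and 2.05 without flox/flox replicate 1, and 3.89 and 3.79 without flox/flox replicate 2, and neither gene was called when either Syn-Cre library was left out.

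The 10 genes with the largest fall were Gm31592, 5830418P13Rik, Abi3bp, Gm20752, Gm12371, Lepr, Tmem91, Htr2a, Hunk and Dipk2a. Htr2a (ENSMUSG00000034997, chromosome 14, 74640840 to 74709494), the 5-HT2A serotonin receptor through which psychedelics act, was at 58.6, 73.0, 22.5 and 29.7 CPM. It fell by 1.31 on the log2 scale (SE 0.19, adjusted p = 0.00757). Every Syn-Cre value lay below every flox/flox value, which was a condition for choosing these 10 genes. Gm20752 (chromosome 3, 159076364 to 159308081), a noncoding RNA that stood above the other excitatory nuclei in every library, was at 171, 237, 64.7 and 57.0 CPM and fell by 1.74 (SE 0.17, adjusted p = 0.000577). Abi3bp, an extracellular matrix gene, was at 19.6, 25.3, 5.39 and 2.48 CPM and fell by 2.56 (SE 0.35, adjusted p = 0.00536), or by 3.15 without Syn-Cre replicate 1. Gm31592, another noncoding RNA, had 47, 34, 3 and 2 UMIs and fell by 3.26 (adjusted p = 0.0124). The leptin receptor gene Lepr had 86, 40, 11 and 14 UMIs and fell by 1.58 (adjusted p = 0.0333).

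Lists of synaptic and membrane genes lay slightly below 0. Of 36 glutamate and GABA receptor genes 1 was called, the kainate receptor gene Grik4, which was higher (49.9, 42.5, 69.1 and 102 CPM, 0.89, adjusted p = 0.0454), while the list median was -0.15 and 28 of the 36 were not above 0. At an unadjusted p below 0.05 there were 9 lower and 1 higher, DESeq2 called 2 lower and none higher, and without the library labelled flox/flox replicate 1 edgeR called 5 lower and 2 higher. Without flox/flox replicate 2 it called 5 lower and 1 higher, and without Syn-Cre replicate 2 none. Gria4 had a log2 fold change of -0.63 (adjusted p = 0.0601) and Grm3 one of -0.64 (adjusted p = 0.0736). Of 40 voltage-gated channel genes none was called, at a median of -0.18, with 12 lower and 3 higher at an unadjusted p below 0.05, and DESeq2 called 1 lower. Of these channels edgeR called 2 lower and 1 higher without flox/flox replicate 1 and 1 lower without flox/flox replicate 2. Of 24 cortical layer markers outside the rule none was called, at a median of -0.13, with 6 lower and 1 higher at an unadjusted p below 0.05 and none called by DESeq2. Of these markers edgeR called 2 lower and 1 higher without flox/flox replicate 1, without flox/flox replicate 2 it called 2 lower, and without Syn-Cre replicate 1 it called 1 lower. Cux1 was the nearest (-0.51, adjusted p = 0.105). Of 21 cholesterol synthesis genes none was called at a median of 0.04, with none below an unadjusted p of 0.05 and none called by DESeq2.

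Of 7 tested oligodendrocyte markers none was called, although their median was -1.81 and 4 were lower at an unadjusted p below 0.05. The libraries of a group also differed, and DESeq2 called none. Without flox/flox replicate 2 all 7 were called lower, and in the L2/3 IT and L6 CT nuclei described below 4 and 7 of 8 were. The part of oligodendrocyte RNA in the other results was not tested. With every nucleus left out that had UMIs of 3 or more of 5 myelin genes, 165 genes were called, 122 of them among the 125.

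**Figure D2:**
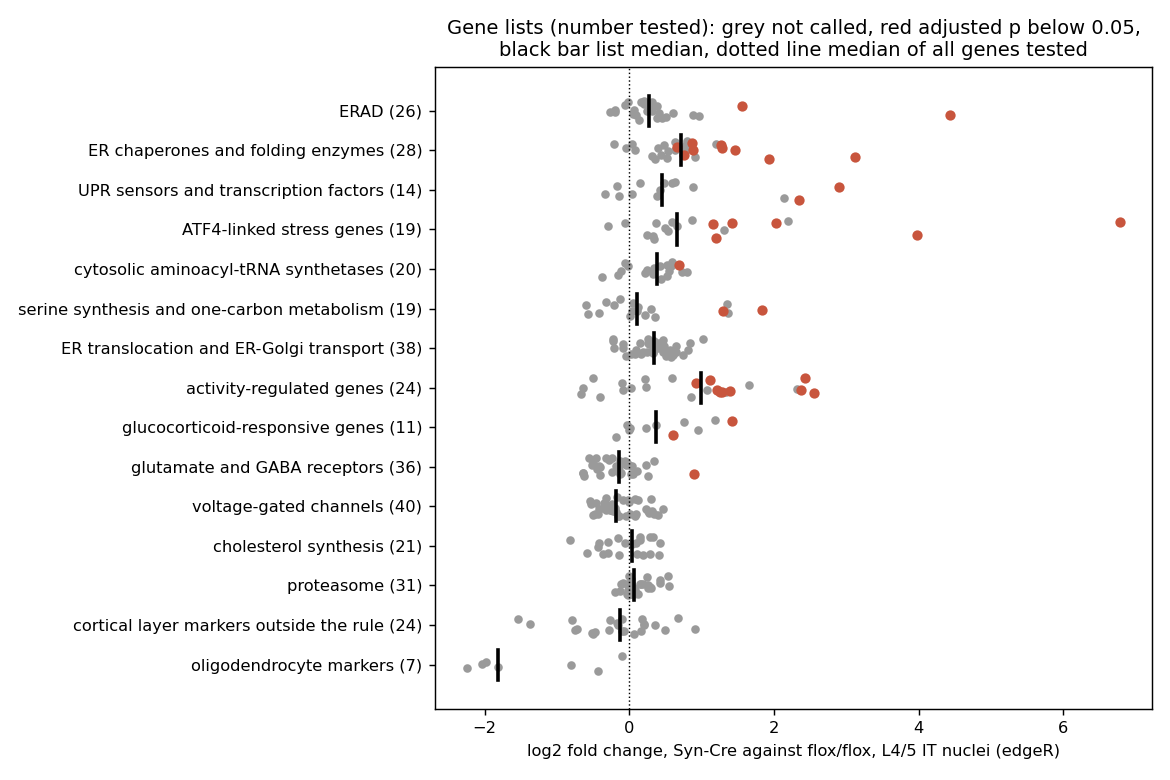
Log2 fold changes of the Syn-Cre against the flox/flox libraries in the L4/5 IT nuclei for the genes of 15 lists, with the number tested in brackets. Red points passed an adjusted p of 0.05, black bars are list medians and the dotted line is the median of all genes tested. The red points lie in the ER stress, amino acid, activity and glucocorticoid lists and, once, among the receptors.

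The same 4 libraries gave 2233 layer 2/3 IT nuclei and 1770 layer 6 corticothalamic (L6 CT) nuclei, chosen by markers of their own, in which the genotype comparison called 36 of 15281 genes (0.236%, with 0.137% higher and 0.0982% lower) and 68 of 13854 (0.491%, with 0.238% higher and 0.253% lower). Their pseudobulks were deeper than those of the L4/5 IT nuclei, with 13217020, 7658238, 7643680 and 9506862 UMIs in L2/3 IT. The difference between genotype effects was tested directly in edgeR with library as a block. It passed for 48 of 15329 genes against L2/3 IT (0.313%), 30 of them with the more positive effect in L4/5 IT (0.196%) and 18 with the more negative (0.117%), and for 21 of 14740 against L6 CT (0.142%), 10 of them more positive (0.0678%) and 11 more negative (0.0746%). Without the library labelled flox/flox replicate 1 the counts were 79 and 90, and without Syn-Cre replicate 1 or 2 those against L6 CT were 4 and 4. DESeq2 called 2 and 4, and without a filter on low counts edgeR called none, with 1230 and 1242 genes at an unadjusted p below 0.05.

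Against L2/3 IT, several ER stress genes had a larger effect in L4/5 IT by edgeR. The effect on Hspa5 was larger by 1.23 on the log2 scale (SE 0.19, adjusted p = 0.0024), being 1.93 in L4/5 IT and 0.73 in L2/3 IT. In L2/3 IT its levels were 20.8, 19.4, 39.5 and 27.7 CPM. Pdia6 differed by 1.29 (1.47 against 0.21), Dnajc3 by 0.81 (1.27 against 0.50), Hsp90b1 by 0.79 (0.88 against 0.11) and Herpud1 by 1.08 (1.56 against 0.47). Sel1l differed by 0.55 (SE 0.11, adjusted p = 0.0336), with an effect of 0.07 in L2/3 IT, where its levels were 95.4, 84.7, 98.0 and 90.6 CPM. Mthfd2 (1.28), Slc7a11 (3.15), Slc1a4 (1.38) and Creb3l2 (2.05) also passed. In L2/3 IT Slc7a11 was at 4.38, 0.777, 7.63 and 3.91 CPM. Its effect of 0.97 there, and so the difference, thus depended on the library labelled flox/flox replicate 1. Without that library the L4/5 IT effect of Creb3l2 was 3.67 in place of 2.34. By list, 4 of 28 chaperones and 2 of 26 ERAD genes had a larger effect in L4/5 IT, and 16 and 6 at an unadjusted p below 0.05, all in that direction, where 1247 of all 15329 genes differed in either direction, while DESeq2 called none of either list. Of 28 activity-regulated genes none passed in edgeR or DESeq2, with 2 in each direction at an unadjusted p below 0.05 and a median difference of 0.15.

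Against L6 CT no gene of the ERAD, chaperone, ATF4-linked or activity lists passed in edgeR or DESeq2, with 1 of 26, 6 of 28, 7 of 22 and 4 of 28 more positive in L4/5 IT at an unadjusted p below 0.05, where 1161 of all 14740 genes differed in either direction. Of the activity-regulated genes 2 were more negative, and Homer1 differed by -0.48 (adjusted p = 0.0628). The difference in Hspa5 was 1.00 (adjusted p = 0.0508), and that in Herpud1 was 0.31 (adjusted p = 0.746), with effects of 1.56 in L4/5 IT and 1.23 in L6 CT. Homer1 had an effect of 1.21 in L4/5 IT, 1.06 in L2/3 IT and 1.66 in L6 CT. Bdnf had 1.39, 1.25 and 1.47, and Fkbp5 1.42, 1.45 and 1.47.

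Some of the genes that fell in L4/5 IT were also called in the other neurons. Gm20752 fell by 1.67 on the log2 scale in L2/3 IT too (adjusted p = 0.02), and Abi3bp by 1.97 in L2/3 IT and by 1.48 in L6 CT (adjusted p = 0.0367 and 0.0213). Htr2a differed from L2/3 IT by -1.51 (SE 0.19, adjusted p = 0.000346), and from L6 CT by -1.59 (adjusted p = 0.0597). In CPM without TMM scaling, Htr2a was at 56.5, 71.8, 22.3 and 30.6 in L4/5 IT and at 18.8, 23.8, 25.6 and 23.9 in L2/3 IT. The Syn-Cre L4/5 IT values thus stood near those of L2/3 IT, and the flox/flox values far above them. Col25a1, a transmembrane collagen, was at 72.9, 60.6, 35.3 and 32.2 CPM in L4/5 IT, and its effect differed by -1.13 from L2/3 IT and by -1.13 from L6 CT (adjusted p = 0.000684 and 0.0134). The muscarinic receptor gene Chrm3 (556, 486, 353 and 286 CPM) and the potassium channel gene Kcnq5 (2691, 2420, 1855 and 1642 CPM) differed from L2/3 IT by -0.51 and -0.44.

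**Figure D3:**
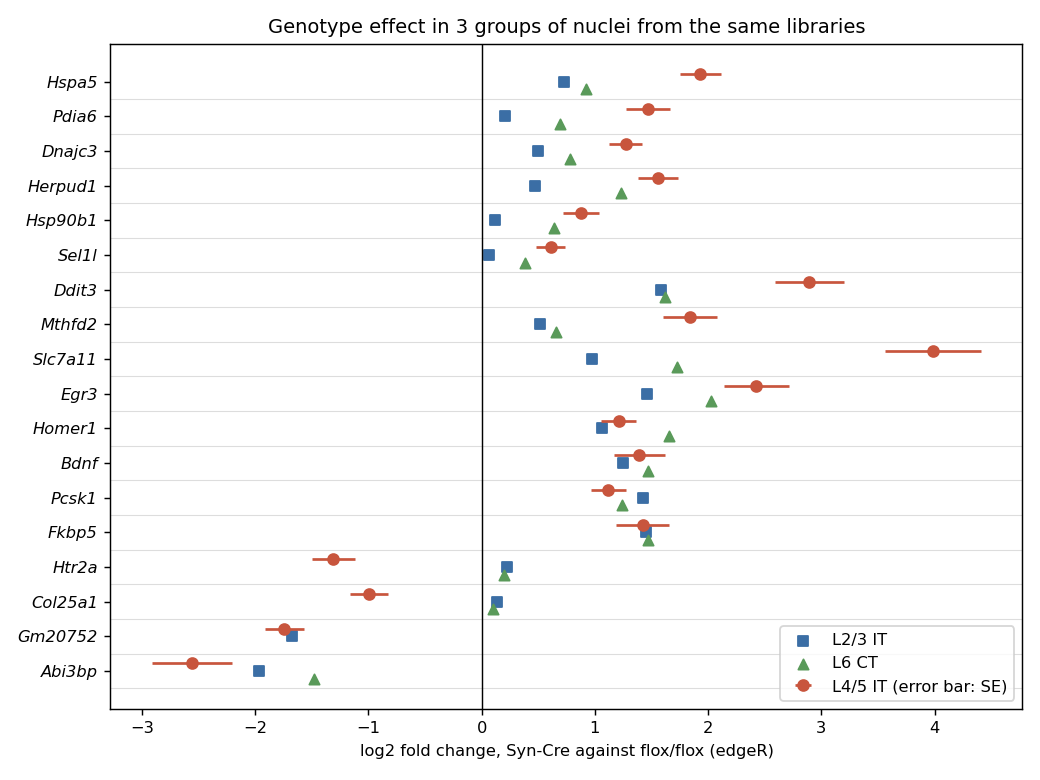
Genotype effects (log2 fold change, Syn-Cre against flox/flox) of 18 genes in L4/5 IT, L2/3 IT and L6 CT nuclei of the same 4 libraries, with SE for L4/5 IT. For the 9 genes from Hspa5 to Slc7a11 the L4/5 IT point lies furthest to the right, those of Bdnf and Fkbp5 lie close together, and Htr2a and Col25a1 are below 0 in L4/5 IT only. Gm20752 was not tested in L6 CT.

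Within the Syn-Cre libraries the most changed genes were found in some of the nuclei. Counting the 5 genes with the largest rise (Fam129a, Gm38403, Derl3, Slc7a11 and Sdf2l1), 5.30%, 4.55%, 34.9% and 38.3% of L4/5 IT nuclei had a UMI of at least 1 of them, and 0.353%, 0.505%, 17.8% and 22.1% had UMIs of 2 or more. Thinned to 4000 UMIs per nucleus, the shares with at least 1 were 1.41%, 1.52%, 12.4% and 19.5%. Fam129a was found in 16.3% and 14.3% of the Syn-Cre L4/5 IT nuclei, and in 5.43% and 3.25% of them when thinned to 4000 UMIs. In the Syn-Cre oligodendrocyte nuclei, which were shallower (medians of 2855 and 2655 UMIs), it was found in 0.567% and 0% (0 of 332, which allows up to 0.904%). Derl3 was found in 11.6% and 1.51% of those oligodendrocyte nuclei and Sdf2l1 in 6.52% and 3.61%. At least 1 of the 5 genes was found in 19.0% and 5.42% of them, in Syn-Cre replicate 1 above the 12.4% of the thinned L4/5 IT nuclei. The share with any of the 5 was thus not above that of the oligodendrocyte nuclei there. UMIs of 2 or more of the 5 were found in 1.7% and 0.301% of the oligodendrocyte nuclei. In the thinned L4/5 IT nuclei this held for 3.1% and 2.6%, or 4 nuclei in each library. The source of the oligodendrocyte UMIs was not tested.

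The 45 and 59 Syn-Cre nuclei with such a UMI were set beside the 84 and 95 without one, in CPM of the summed UMIs, as a description with no test, the 5 genes having been chosen after their values were seen. They were deeper, with medians of 16479 and 18408 UMIs against 12294 and 13384. Sel1l was at 199 and 180 CPM in nuclei with a UMI and at 93.4 and 108 CPM in those without, the latter near the 92.1 and 85.6 CPM (without TMM scaling) of the flox/flox L4/5 IT nuclei. Hspa5 was at 112 and 99.9 against 38.2 and 26.6 CPM, and Herpud1 at 113 and 84.6 against 30.6 and 35.0 CPM. Ddit3 was at 40.7 and 48.0 against 10.2 and 7.70 CPM, Mthfd2 at 65.5 and 56.4 against 17.0 and 9.80 CPM, and Slc7a3 at 53.1 and 35.8 against 5.95 and 8.40 CPM. None of these pairs of exact 95% Poisson intervals overlapped in either library.

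Of the activity-regulated genes, Egr3 and Homer1 were lower in the nuclei with a UMI in Syn-Cre replicate 1, with overlapping intervals in replicate 2, and Bdnf had overlapping intervals in both. Egr3 was at 19.2 and 60.2 CPM in nuclei with a UMI and at 47.6 and 68.6 CPM in those without, Homer1 at 466 and 733 against 821 and 781 CPM, and Bdnf at 48.6 and 69.4 against 40.8 and 68.6 CPM. Htr2a was at 21.5 and 37.4 against 22.9 and 24.5 CPM, in both kinds of nuclei below the 56.5 and 71.8 CPM of the flox/flox L4/5 IT nuclei. Gm20752, at 39.5 and 22.9 against 82.4 and 91.7 CPM, was lower in the nuclei with a UMI.

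After thinning to 4000 UMIs per nucleus most of these differences were within the counting intervals. Then 16 and 30 nuclei had such a UMI, in place of 45 and 59, and 113 and 124 had none. Nuclei that lost every such UMI were thus counted among those without, and fewer UMIs widened the intervals. Overlap here therefore cannot show whether depth made the unthinned differences, which was not tested. Sel1l was then at 141 against 133 CPM in Syn-Cre replicate 1 and at 208 against 119 CPM in replicate 2, with overlapping intervals in both. Hspa5 was at 125 and 75.0 against 62.0 and 46.4 CPM, and Hspa5, Pdia6, Dnajc3 and Ddit3 had overlapping intervals in both libraries. Herpud1 was at 188 against 48.7 CPM in replicate 1, where the intervals did not overlap, but at 41.7 against 52.4 CPM in replicate 2. Slc7a3 likewise was at 78.1 against 8.85 CPM in replicate 1 and at 16.7 against 22.2 CPM in replicate 2. In replicate 2 both rested on few UMIs (5 and 2 in the nuclei with such a UMI) and their intervals overlapped, so no direction can be read there. Mthfd2 had 10 and 6 UMIs in nuclei with such a UMI and 10 and 8 in those without, with overlapping intervals in replicate 2 only. Gm20752, Egr3, Bdnf and Htr2a had overlapping intervals in both, with Htr2a at 66.7 CPM in the 30 nuclei of replicate 2, within the range of the flox/flox nuclei. Homer1 had 48 UMIs in 16 nuclei against 317 in 113 in replicate 1, with overlapping intervals, and was at 525 against 851 CPM in replicate 2, where they did not overlap.

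**Figure D4:**
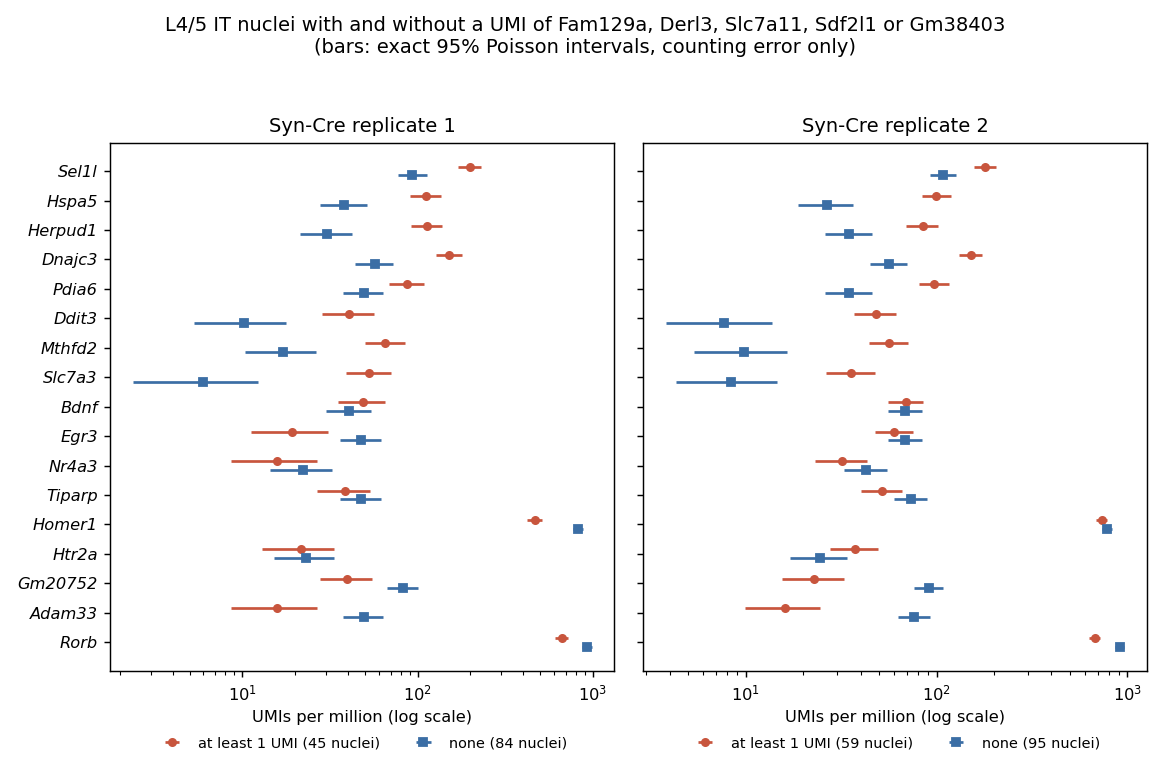
Levels of 17 genes in Syn-Cre L4/5 IT nuclei with at least 1 UMI of Fam129a, Derl3, Slc7a11, Sdf2l1 or Gm38403 (red) and without (blue), in CPM on a log axis with exact 95% Poisson intervals. In these unthinned counts the 8 genes from Sel1l to Slc7a3 are higher in the red nuclei, which were deeper, and Gm20752 lower. Adam33 and Rorb, also lower in the red nuclei, are rule genes, so their levels are partly set by how the nuclei were chosen. Thinning to 4000 UMIs moved nuclei from red to blue and left fewer UMIs. After it none of the 17 genes had intervals apart in both libraries.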

How the data were processed

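The authors deposited raw UMI counts per gene and nucleus for 4 libraries (Cell Ranger 6.1.0, GRCm38, per the submitters' processing notes). Whether introns were counted is not given in the sources used here. Each library is 1 mouse by the study's methods. UMI totals of the summed L4/5 IT nuclei ran from 2062285 to 5287562. Nuclei that met the rule were summed per library and compared with edgeR 4.0.16 (R 4.3.3, TMM, filterByExpr, quasi-likelihood F test, Benjamini-Hochberg over all genes tested, prior count 0.125). Standard errors were taken as the size of the log2 fold change over the square root of F, and 2 libraries a group limit the precision of every test. L2/3 IT nuclei had at least 2 UMIs of Cux2 and 3 of 7 markers, L6 CT nuclei at least 2 UMIs of Foxp2 and 3 of 6. Nuclei meeting both rules, or the L4/5 IT rule, were left out. Doublets (Scrublet in scanpy, 18.7%, 8.59%, 10.9% and 14.3% of the L4/5 IT nuclei) were kept. The tests were checked on simulated counts with known changes and a wider spread between libraries than the L4/5 IT counts had. Of 2-fold changes, 45.2% were recovered for genotype in L4/5 IT, 9.2% for the difference from L2/3 IT and 3% for that from L6 CT. For 4-fold changes the shares were 95.7%, 67.2% and 77.9%. A gene that was not called is therefore not shown to be unchanged. Intervals cover counting error only.

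The members and gene lists were chosen with earlier results of these data known. Named genes are the 10 with the largest changes in each direction among those called, with at least 20 UMIs and no overlap of groups. They also include the called genes of each list, up to 4 of them with levels and the others with the log2 fold change only. Well-known genes of a list that were not called are named too, as are those with the 5 smallest p in each direction of a difference. Against other excitatory nuclei they are the 10 most extreme ratios in each direction at 50 CPM or more in every library, and among nuclei the 10 largest ratios of variance to mean. Gene positions are from GENCODE vM21. Python 3.11.15 with scanpy 1.11.5 was used besides. Alternatives were DESeq2 1.42.0, other normalization, filters, rules and doublet removal, thinned totals, a replicate block and each library left out. A few single-gene values are not reported here.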

Additional observations from a re-analysis of the deposited data

Results flagged for a closer look

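The genotype effect of single genes differed between L4/5 IT nuclei and the other neurons of the same libraries, by the edgeR test of the difference itself. Against L2/3 IT nuclei this held for 48 genes. Those with the smallest p and the more positive effect in L4/5 IT were the follistatin-like gene Fstl5 (difference 1.24 on the log2 scale), the transcription factor gene Zbtb20 (0.87), Pdia6 (1.29), the noncoding RNA 9530026P05Rik (2.62) and Agap1 (0.75). Those with the more negative effect were Htr2a (-1.51), Col25a1 (-1.13), Crispld1 (-1.69), Chrm3 (-0.51) and Kcnq5 (-0.44). Zbtb20 was at 212, 87.0, 204 and 209 TMM-scaled CPM in L4/5 IT, so its groups overlapped there. It was not called in L4/5 IT (log2 fold change 0.46, adjusted p = 0.546), but was without the library labelled flox/flox replicate 1 (1.25, adjusted p = 3.49e-08). Crispld1 was at 16.1, 20.2, 12.7 and 14.5 CPM in L4/5 IT and was higher in both Syn-Cre libraries of L2/3 IT, at 37.1 and 53.6 CPM, though not called there (adjusted p = 0.0589).

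Against L6 CT nuclei the difference passed for 21 genes. Unc5d, a netrin receptor, differed by 0.72, Nxph1 by 1.94, Snx25 by 1.28, the phosphodiesterase gene Pde11a by 2.95 and the adhesion gene Kirrel3 by 0.90, all more positive in L4/5 IT, although without doublet-scored nuclei the difference in Nxph1 turned to -0.54. The adhesion genes Sdk1 and Cntnap5b differed by -1.12 and -1.15, Gm33228 by -0.95, Ptchd4 by -0.81 and Ust by -1.33. Of these 10, Snx25, Cntnap5b, Gm33228 and Ptchd4 were also called in L4/5 IT alone, and Unc5d (-0.75) and Nxph1 (-1.60) in L6 CT alone. Nxph1 was at 10.8, 18.8, 20.1 and 15.6 CPM in L4/5 IT, where its groups overlapped.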

How the results depend on the processing

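With 2 libraries a group, the number of genes called depended on the libraries. The 125 genes called in L4/5 IT became 67 to 542 when each library was left out, 210 without doublet-scored nuclei, 24 with at least 4 of the 7 rule genes, 39 in all excitatory nuclei with Rorb, and 8 against a log2 fold change of 1. DESeq2 called 87, 79 of them among the 125. Each of the 125 that could be tested kept its direction in every alternative. The replicate numbers were not shown to pair the libraries (the deviations of same-numbered libraries correlated at 0.143 over 12548 genes and at 0.008 without Xist, Tsix and Y-linked genes), and a replicate block, which here also separates the sexes, gave 434 calls, with all 125 among them. Against L2/3 IT the 48 differences became 2 with DESeq2, 0 with no filter on low counts (1230 at an unadjusted p below 0.05), and 29 to 79 with each library left out. Against L6 CT the 21 became 4 with DESeq2, 0 with no filter (1242 at an unadjusted p below 0.05), 46 with at least 10 counts in every library, 62 without doublet-scored nuclei, and 4 to 90 with each library left out. Without doublet-scored nuclei 46 of the 47 differences from L2/3 IT that could be tested again kept their sign, as did 19 of 20 from L6 CT, where that in Nxph1 reversed from 1.94 to -0.54. The cause of these changes was not tested. Where a library was left out, the lone library of its group was assumed to vary like the others. The alternatives with all Rorb nuclei, without Adam33 in the rule and without nuclei with myelin UMIs were chosen after seeing the data. The difference in the share of kept nuclei was below 0 in every alternative, from -0.0466 points after thinning to -0.719 points, and was -1.43 points as a share of excitatory nuclei. Of the values for single genes, 888 kept their side of the threshold, 280 no longer passed and 5 newly passed. The library labelled flox/flox replicate 1 held Cre UMIs, and its genotype was not tested.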

Other observations

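Genes outside the lists differed between L4/5 IT and L2/3 IT by edgeR and were chosen after their values were seen. Mei4 was at 21.0, 23.3, 65.7 and 51.0 TMM-scaled CPM in L4/5 IT and its effect was more positive than in L2/3 IT by 0.98 (adjusted p = 0.00692) and than in L6 CT by 1.23 (adjusted p = 0.0187). Magt1, a subunit of the oligosaccharyltransferase that glycosylates proteins in the ER, was at 11.0, 9.93, 32.8 and 33.3 CPM, a difference from L2/3 IT of 1.22 (adjusted p = 0.0336). Kctd8, an auxiliary subunit of GABA-B receptors, was at 10.8, 17.1, 36.3 and 46.7 CPM and differed by 0.86 from L2/3 IT (adjusted p = 0.0336) and by 2.07 from L6 CT (adjusted p = 0.0191). In L6 CT it was at 134, 65.1, 83.8 and 71.5 CPM, so the size of that difference depended on the library labelled flox/flox replicate 1. The calcium-binding protein gene S100b was at 15.1, 14.7, 34.8 and 47.4 CPM and differed by 1.31 from L2/3 IT (adjusted p = 0.0441).

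Markers of other cell types were counted in the L4/5 IT nuclei as summed CPM. Astrocyte markers were at 550, 476, 522 and 427 CPM over 6 genes, mostly Slc1a2, with Aqp4 at 0 in Syn-Cre replicate 2. Hippocampal markers were at 861, 697, 768 and 798 CPM over 4 genes, mostly Spock1. Microglia markers (61.7, 80.2, 65.5 and 65.3 CPM), markers of oligodendrocyte precursors (10.2, 23.6, 11.6 and 16.1 CPM) and interneuron markers (30.8, 36.0, 34.4 and 46.0 CPM, mostly Adarb2) were lower. Endothelial markers reached 3.88 CPM and vascular markers 8.73 CPM, both in Syn-Cre replicate 1. Few of these markers had enough UMIs to be tested between the genotypes in L4/5 IT nuclei: 3 of 6 astrocyte, 3 of 4 hippocampal, 3 of 5 microglia, 2 of 4 precursor and 1 of 4 interneuron markers, and no endothelial or vascular one. With all libraries none of those tested was called by edgeR or DESeq2 or had an unadjusted p below 0.05 in edgeR. The hippocampal marker Zbtb20 was called higher without the library labelled flox/flox replicate 1, with a log2 fold change of 1.25 in place of 0.46 (adjusted p = 3.49e-08 and 0.546).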
